A study of Mus musculus with 2 samples.

Results

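The genes described here are the mouse genes of the MAP kinase cascade, taken by their names. They are the protein-coding genes whose symbols start with Mapk, Map2k, Map3k or Map4k followed by a digit or letters, with 1 gene left out by the rule that chose them. The rule gave 53 genes in the annotation used. Of these, 40 had at least 1 splice junction that could be named, out of 9644 such genes in all, and 37 had at least 20 junction reads over both libraries, out of 7210. The comparison is between 2 RNA sequencing libraries of splenic CD4+ T cells, the helper lymphocytes, from male C57BL/6JJcl mice. The stimulated cells were held for 4 h on immobilised anti-CD3e and anti-CD28, antibodies to the T cell receptor complex and to its costimulatory receptor, at 2 ug/ml each. The mock cells were handled alike with no antibody. Cells came from a pool of 4 spleens, and the labels do not say whether both libraries came from the same pool. No gene was altered in either group. With 1 library per group there was no replicate check, so each difference is one between these libraries and carries no p-value.

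The cascade passes a signal down a chain of protein kinases. A MAP4K or a small GTPase activates a MAP3K, the MAP3K phosphorylates a MAP2K, and the MAP2K phosphorylates a MAP kinase, which acts on transcription factors and further kinases. The main branches end in ERK (among them Mapk3), JNK (Mapk8, Mapk9) and p38 (Mapk11, Mapk12, Mapk14). In T cells, signals from the T cell receptor and its costimulatory receptor can switch these branches on. That switch is phosphorylation of protein, which RNA does not show; the values here are levels of spliced RNA.

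The measure was the number of reads across splice junctions. The mock library held 1147232 such reads and the stimulated library 1341197. A gene's reads were summed over its named junctions and expressed as rpm, the number per 1000000 junction reads of the library. Ratios are stimulated over mock, in brackets with their exact (Clopper-Pearson) 95% interval. These intervals cover counting error only, since there is 1 library per group. They may be too narrow even for that, since reads are not independent molecules. The spread between junctions of a gene was 2.02 times the counting variance. To be called higher or lower, a gene needed 20 reads, a ratio no nearer to 1 than 2 or 0.5, and an interval without 1. Levels of single genes were compared with each other only as rpm per annotated intron. Sums over sets of genes are plain rpm, not divided by introns, and the sets differ in their number of genes. The value of 3 reads, up to which a gene with 0 reads may have been there, was 2.61 rpm for the mock cells and 2.24 rpm for the stimulated cells.

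Of the 37 measured cascade genes, 3 were higher in the stimulated library, where 17.1% of all 7210 measured genes were, and 11 were lower, where 25.1% of all genes were. The other 23 met neither call. The 3 higher genes were Map2k3, Mapk6 and Mapk11. The 11 lower genes were Mapk3, Mapk9, Mapk14, Map2k5, Map3k1, Map3k2, Map3k3, Map3k4, Map3k12, Map4k2 and Map4k5. The median log2 ratio of the 37 genes was -0.37, beside -0.21 over all measured genes. In bulk RNA, fewer cells of a type and less RNA per cell cannot be told apart. The split depends on the scaling. Scaling by the median of ratios or by the trimmed mean of M values, here called the gene-based scalings, gave more higher and fewer lower calls. With the second, which puts the level of no change at -0.24 on the log2 scale, 6 cascade genes were higher and 8 lower, and over all genes the calls went from 1230 higher and 1809 lower to 1554 and 1411.

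**Figure D1:**
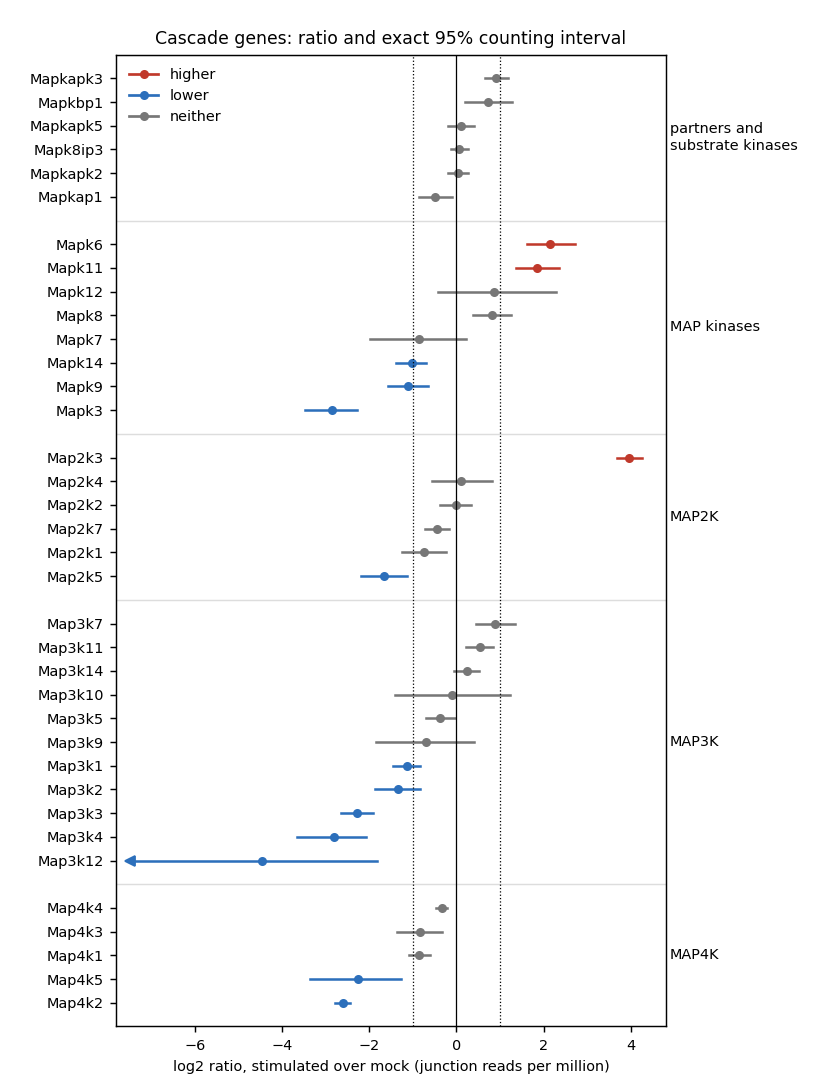
Log2 ratio of stimulated to mock rpm for 36 of the 37 measured cascade genes, by tier; points are ratios, bars exact 95% counting intervals, dotted lines the fold of 2, and the arrow an interval that runs past the axis. Map2k3 lies farthest to the right at 3.97, and all coloured points below the MAP2K tier are lower in the stimulated library.

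**Figure D2:**
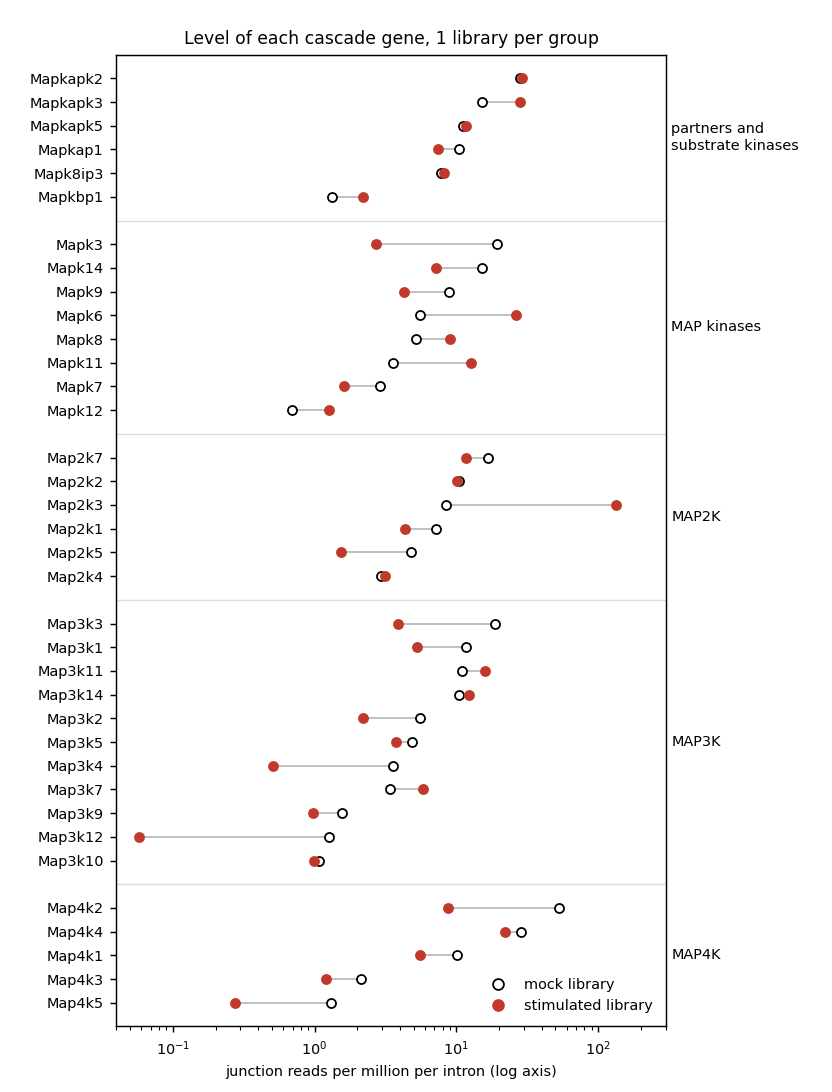
Junction reads as rpm per intron on a log axis for the same genes, open circles for the mock library and filled circles for the stimulated library, 1 library each. Map4k2 had the highest mock level at 53.3 and Map2k3 the highest stimulated level at 134.

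The MAP4K genes encode Ste20-type kinases at the top of the chain. All 5 had a ratio under 1, and 2 of them were called lower, beside 25.1% of all measured genes. The median log2 ratio was -0.85 beside -0.21 over all measured genes. Map4k2, which encodes germinal centre kinase, had 1919 mock and 368 stimulated reads, a ratio of 0.164 (0.146 to 0.183), over chr19:6341346-6353439. Its mock level per intron, 53.3 rpm, was the highest of the measured cascade genes, and its stimulated level was 8.78 rpm. All 29 of its junctions with at least 10 reads were lower in the stimulated library. Map4k5 went from 45 to 11 reads, a ratio of 0.209 (0.0975 to 0.411). With only the junctions seen in both libraries Map4k5 had 16 and 10 reads and met no call, and the call was also lost with its most-read junction alone.

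The other MAP4K genes met no call. Map4k4, the kinase also called HGK, had 1007 mock and 929 stimulated reads, a ratio of 0.789 (0.721 to 0.864), and its level per intron went from 28.7 to 22.0 rpm, above that of every other gene of the tier in the stimulated library. Map4k1 encodes HPK1, a kinase of blood cells known to dampen signals from the T cell receptor. It had 360 and 233 reads and a ratio of 0.554 (0.467 to 0.655), just short of the fold of 2. Map4k3 had 81 and 53 reads. Reads of the whole tier went from 2970 to 1190 rpm, and most of that difference was Map4k2.

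Map4k4 is also where exon choice could be followed over several neighbouring exons. Its transcripts differ in the region between the kinase domain and the C-terminal domain. A stretch of 93 bases at chr1:40057376-40057468, on the plus strand, is kept or left out by the choice between 2 acceptor sites. At the donor before it, 5 of 15 mock reads kept the stretch, 33.3% (11.8 to 61.6), and 17 of 21 stimulated reads, 81.0% (58.1 to 94.6). The stretch is shown in capitals, between the 15 bases spliced to each side of it, because it had the largest difference in share, 47.6 percentage points, among the 26 cascade splice sites with at least 10 reads in each library. The sequence is that of the matching GENCODE M21 transcript, and its length is a multiple of 3.
Map4k4 stretch: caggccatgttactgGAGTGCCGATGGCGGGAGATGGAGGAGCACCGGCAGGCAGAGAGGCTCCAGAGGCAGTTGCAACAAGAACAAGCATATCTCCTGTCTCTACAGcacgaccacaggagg
The 2 intervals for this stretch overlap, between 58.1% and 61.6%. Such an overlap does not by itself show that the shares are alike. The stretch was also picked as the largest difference of the 26 sites, so its size may be overstated.

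Downstream in Map4k4, 3 more coding exons with lengths that are multiples of 3 were skipped in some reads. By the numbering of 1 annotated transcript of 31 exons, exon 16 has 162 bases at chr1:40058275-40058436 and exon 17 has 231 bases at chr1:40060602-40060832. From the donor before them, 6 of 14 mock reads entered exon 16, 2 skipped it alone and 6 skipped both exons. Of 14 stimulated reads, 3 entered exon 16, 7 skipped it alone and 4 skipped both. At the acceptor after exon 17, 4 of 10 mock reads and 7 of 11 stimulated reads came from that exon. The share that skipped exon 16 alone and the share that kept exon 17 lay farther apart than 20 points, but their intervals overlap. The 192-base exon at chr1:40068495-40068686 was skipped in 0 of 82 mock reads, an interval up to 4.40%, and in 4 of 71 stimulated reads, 5.63% (1.56 to 13.8). That exon was thus present in nearly all reads of both libraries.

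Splice sites with at least 20 reads in each library were compared over all genes, and counted where the share of a junction differed by 20 points or more with intervals apart. This held for 39 of 1148 sites, 3.40%. It held for 0 of 9 cascade sites, which lay in 6 genes. In Map4k2 the most-read of these sites was the acceptor at chr19 position 6351179, where a donor 8 bases further downstream took 17 of 300 mock reads, 5.67% (3.34 to 8.92), and 2 of 32 stimulated reads, 6.25% (0.766 to 20.8). The level of Map4k2 differed between the libraries. Whether the share at this site did could not be told from 32 stimulated reads, since their interval is wide. No site of Map4k1, Map4k3 or Map4k5 reached the minimum. At a cassette exon of Map4k1, 56 bases at chr7:29787367-29787422, 1 of 14 reads skipped the exon in each library.

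MAP3K genes encode the kinases that receive the signal from receptors, GTPases and MAP4K proteins. None of the 11 measured was higher and 5 were lower, beside 17.1% and 25.1% of all genes, and the median log2 ratio was -0.69 beside -0.21. Map3k3, which encodes MEKK3, had 321 mock and 78 stimulated reads over chr11:105946248-106015279, a ratio of 0.208 (0.160 to 0.267). All 13 of its junctions with at least 10 reads were lower in the stimulated library, and its level per intron went from the highest of the tier, 18.7 rpm, to 3.88 rpm. Its close relative Map3k2, encoding MEKK2, went from 102 to 47 reads, a ratio of 0.394 (0.273 to 0.562). Both kinases are known to feed JNK and the ERK5 branch.

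Map3k4 encodes MEKK4, a kinase that Gadd45 proteins bind. It had 103 mock and 17 stimulated reads over chr17:12425385-12511363, a ratio of 0.141 (0.0792 to 0.237). Map3k1 encodes MEKK1, which is both a kinase and a ubiquitin ligase, and had 257 and 136 reads, a ratio of 0.453 (0.365 to 0.559). Of its 15 junctions with at least 10 reads, 14 were lower. The lower call of Map3k1 was lost under both gene-based scalings, and when only its most-read junction was used. Map3k12, encoding the kinase DLK, went from 19 reads to 1, a ratio of 0.0450 with a wide interval, 0.00108 to 0.283. The call of Map3k12 rests on 20 reads in all. It was lost at a minimum of 50 reads, with the most-read junction alone, without that junction, and with only the junctions seen in both libraries.

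The most-read gene of the tier, Map3k14, met no call. It encodes NIK, the kinase of the noncanonical NF-kB pathway, and had 179 and 247 reads, a ratio of 1.18 (0.970 to 1.44). Map3k11, encoding MLK3, had 138 and 234 reads, and of its relatives Map3k9 had 18 and 13 and Map3k10 had 11 and 12. Map3k5 encodes ASK1, a kinase activated by oxidative stress, and had 157 and 142 reads.

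Map3k7 encodes TAK1, a kinase that links receptors to NF-kB, JNK and p38. It had the highest ratio of the tier, 1.85 (1.36 to 2.55), from 61 and 132 reads. It met no call. It was called higher under both gene-based scalings, while its most-read junction alone had 15 and 14 reads and a log2 ratio of -0.32. An 81-base coding exon of Map3k7 at chr4:32081849-32081929 was skipped in 2 of 3 mock reads and in 11 of 16 stimulated reads at the donor before it, 68.8% (41.3 to 89.0) in the latter. At 3 mock reads no difference could be detected at this depth.

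MAP2K genes encode the dual-specificity kinases, each of which acts on a single branch or a pair of branches. Map2k3, which encodes an activator of p38, had the largest ratio of all 37 measured cascade genes. It had 108 mock and 1974 stimulated reads over chr11:60745774-60765265, a ratio of 15.6 (12.9 to 19.2). All 11 of its junctions with at least 10 reads were higher in the stimulated library. The first junction, over an intron of 9608 bases, had 1 mock and 46 stimulated reads, and the last had 22 and 515. The level per intron went from 8.48 to 134 rpm, the highest of the measured cascade genes in the stimulated library. The 52-base exon at chr11:60759013-60759064 was skipped in 1 of 9 mock reads and 2 of 139 stimulated reads.

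Map2k6, another activator of p38, went the other way on few reads. It had 15 mock and 0 stimulated reads, at least 5.85-fold lower when set against 3 reads in the stimulated library, with a limit of 4.19-fold from its exact interval. It stayed below the minimum of 20 reads and so entered no count. Map2k5, the activator of ERK5, was the 1 lower gene of the tier. It had 116 mock and 43 stimulated reads over chr9:63011998-63224929, a ratio of 0.317 (0.218 to 0.454).

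The activators of ERK and JNK met no call. Map2k1 and Map2k2 encode MEK1 and MEK2. Map2k1 had 83 and 58 reads, and Map2k2 had 124 and 144, a ratio of 0.993 (0.776 to 1.27). Map2k4, which acts on JNK and p38, had 34 and 43 reads. Map2k7 acts on JNK alone and had 234 and 201 reads, a ratio of 0.735 (0.605 to 0.891), with the highest mock level per intron of the tier, 16.7 rpm.

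In Map2k7 the second of 13 exons, 48 coding bases at chr8:4240688-4240735 on the plus strand, can be left out of the mRNA. It lies in the N-terminal part, where the kinase docks to JNK, and skipping of the human counterpart in stimulated T cells is known from other work. At the donor before it, 4 of 15 mock reads skipped the exon, 26.7% (7.79 to 55.1), and 10 of 18 stimulated reads did, 55.6% (30.8 to 78.5). At the acceptor after it the skipping junction took 4 of 10 mock reads and 10 of 15 stimulated reads. The shares differed by 28.9 and 26.7 points and their intervals overlap, so a difference could not be shown at this depth. The exon is shown in capitals with 15 coding bases on each side, followed by the same flanks as they are joined without it, from the GENCODE M21 transcript.
Map2k7 with the exon: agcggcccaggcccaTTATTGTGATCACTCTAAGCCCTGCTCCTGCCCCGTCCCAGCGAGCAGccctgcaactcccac
Map2k7 without the exon: agcggcccaggcccaccctgcaactcccac
The exon's length is a multiple of 3, so the frame is the same in both forms. The most-read tested site of Map2k7, the donor at chr8 position 4244776, led past exon 10 in 0 of 25 mock reads and 1 of 20 stimulated reads.

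**Figure D3:**
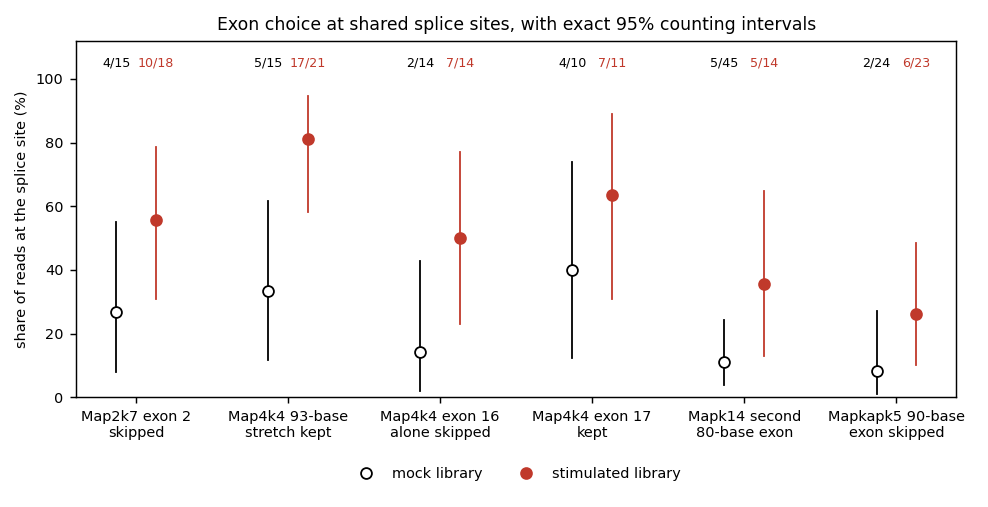
Share of reads at a splice site, in percent, for 6 exon choices in 4 cascade genes, open circles for the mock library and filled circles for the stimulated library with exact 95% counting intervals; the numbers above are reads of the junction over reads of the site. The Map4k4 stretch at 33.3% and 81.0% is the widest difference, and the intervals overlap in each of the 6 choices.

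Of the 9 measured MAP kinases themselves, 2 were higher, 3 lower and 4 of neither call, beside 17.1% higher and 25.1% lower over all measured genes. Their summed reads were 827 rpm in each library, a sum in which genes with many introns weigh more.

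In the ERK branch, Mapk3, encoding ERK1, had 179 mock and 29 stimulated reads over chr7:133903333-133908753, a ratio of 0.139 (0.0902 to 0.206). All 8 junctions of Mapk3 were lower in the stimulated library. The second and the third of them, at chr7:133904428-133906548 and chr7:133906739-133906911, had 45 and 30 mock reads and 0 stimulated reads, while the first had 10 and 2 and the other 5 had 4 to 6 stimulated reads each. These junctions lie on both sides of 1 exon, and no junction was found that skips it. With only the junctions seen in both libraries, Mapk3 had 104 and 29 reads and a log2 ratio of -2.07 in place of -2.85. The cause of the empty junctions was not tested.

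Mapk6 encodes ERK3, an atypical MAP kinase whose protein is short-lived. It had 34 mock and 177 stimulated reads over chr9:75236955-75257669, a ratio of 4.45 (3.07 to 6.63). Its 4 junctions with at least 10 reads had log2 ratios from 2.15 to 2.27, a narrow range along the gene. Mapk7, encoding ERK5, had 20 and 13 reads, a ratio of 0.556 (0.254 to 1.17), and met no call. Map2k5, Map3k2 and Map3k3 above it were lower. The interval of Mapk7 overlaps that of each of them, for Map3k3 only between 0.254 and 0.267. Overlap of separate intervals does not decide whether ratios differ, and the ratio of Mapk7 was not tested against theirs.

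In the JNK branch, Mapk8, encoding JNK1, had 67 and 137 reads, a ratio of 1.75 (1.30 to 2.38), and Mapk9, encoding JNK2, had 118 and 64, a ratio of 0.464 (0.337 to 0.634). Of the 8 junctions of Mapk8 with at least 10 reads, 6 were higher and 2 lower. Those nearest its 5′ end had log2 ratios of -0.36, 0.10 and 0.22, and its most-read ones, nearer the 3′ end, 1.58 and 1.92. All 8 such junctions of Mapk9 were lower. Mapk8 was called higher and Mapk9 lost its call under both gene-based scalings, so the calls of these genes depend on the scaling. Each of Mapk8 and Mapk9 carries a pair of mutually exclusive 72-base exons in the kinase domain that are known to change substrate binding. In Mapk9 the second exon of the pair, at chr11:49687766-49687837, was entered from the exon before by 11 mock and 5 stimulated reads, and the first exon by 2 and 0. In Mapk8 the reads were too few to set the libraries side by side.

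In the p38 branch, Mapk11, encoding p38 beta, was higher and Mapk14, encoding p38 alpha, was lower. Mapk11 had 46 mock and 194 stimulated reads over chr15:88974248-88979827, a ratio of 3.61 (2.60 to 5.09). All 8 of its junctions with at least 10 reads were higher. Mapk14 had 198 and 113 reads over chr17:28828801-28883215, a ratio of 0.488 (0.384 to 0.618), and all 11 such junctions of Mapk14 were lower. The ratio of Mapk14 was near the fold of 2, and the call was lost under both gene-based scalings and without its most-read junction. Mapk12, encoding p38 gamma, had 8 and 17 reads.

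Mapk14 also uses 1 of 2 mutually exclusive exons of 80 bases, on the plus strand at chr17:28873956-28874035 and chr17:28877625-28877704. The exons have 39 of 80 bases in common, 48.8%. They are shown in capitals between the same 15 coding bases of the neighbouring exons, as in the GENCODE M21 transcripts, so that they can be compared.
Mapk14 first exon: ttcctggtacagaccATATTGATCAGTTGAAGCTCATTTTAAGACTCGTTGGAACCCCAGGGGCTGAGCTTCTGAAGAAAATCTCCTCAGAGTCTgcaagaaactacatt
Mapk14 second exon: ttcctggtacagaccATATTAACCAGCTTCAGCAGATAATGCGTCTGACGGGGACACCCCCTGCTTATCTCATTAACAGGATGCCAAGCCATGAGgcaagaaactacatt
At the acceptor that both share, the second exon took 5 of 45 mock reads, 11.1% (3.71 to 24.1), and 5 of 14 stimulated reads, 35.7% (12.8 to 64.9). The junction of the first exon had 40 and 9 reads and that of the second had 5 in each library. The intervals of the shares overlap. At the donor before the pair the reads were few, with 11 mock and 4 stimulated reads into the first exon and 1 and 0 into the second.

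Related genes were then set against each other, since the ratio of 2 genes' ratios does not depend on how the libraries were scaled. These 8 pairs were picked after the gene values had been seen, so their balance is a description. In the p38 pair, the share of Mapk11 in the level per intron went from 19.0% to 63.7%, a ratio of ratios of 7.36 (4.89 to 11.2). In the JNK pair, the share of Mapk8 went from 36.9% to 68.0%, a ratio of ratios of 3.76 (2.42 to 5.88), though the ratio of Mapk8 was uneven along the gene. In both pairs the gene with the higher level per intron was a different one in each library.

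The kinases above the MAP kinases showed a shift in some pairs and not in others. In the pair of Map2k3 and Map2k6, which both activate p38, Map2k3 made up 87.7% of the mock level and 100% of the stimulated level. The lower limit for the ratio of Map2k3 over that of Map2k6 was 64.0. Map4k1 went from 15.9% to 38.9% of its pair with Map4k2, a ratio of ratios of 3.37 (2.75 to 4.14). Map3k2 went from 23.0% to 36.1% beside Map3k3, a ratio of ratios of 1.89 (1.21 to 2.96). Widened by the spread between junctions of a gene, that interval was 1.04 to 3.47. For the MEK pair, Map2k1 over Map2k2, it was 0.602 (0.390 to 0.928), and the interval reached 1.08 when widened by the spread between junctions of a gene, which was 2.02 times the counting variance. For the JNK activators, Map2k4 over Map2k7, it was 1.47 (0.879 to 2.48), an interval that spans 1.

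**Figure D4:**
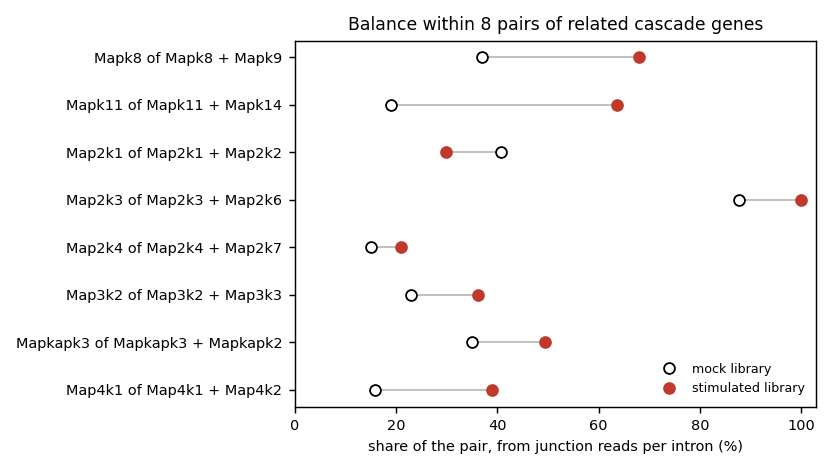
Share of the first-named gene in each of 8 pairs of related cascade genes, in percent of the pair's junction reads per intron, open circles for the mock library and filled circles for the stimulated library. Mapk11 moves farthest, from 19.0% to 63.7%, and the share of Map2k1 is the only 1 of the 8 that is lower in the stimulated library.

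The partners and substrate kinases of the cascade had 6 measured genes, and none met a call, beside 17.1% higher and 25.1% lower over all measured genes. Mapk8ip3, a scaffold of JNK and the most-read of them, had 399 and 488 reads, a ratio of 1.05 (0.915 to 1.20). Mapkapk2 and Mapkapk3 encode related kinases that p38 activates and that act on RNA-binding proteins of cytokine mRNAs. Mapkapk2 had 291 and 350 reads. Mapkapk3 had 173 and 381, a ratio of 1.88 (1.57 to 2.27), with all 7 junctions of at least 10 reads higher, and was called higher under both gene-based scalings. The share of Mapkapk3 in this pair went from 34.9% to 49.4%, a ratio of ratios of 1.83 (1.43 to 2.34).

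Mapkapk5, a kinase that binds ERK3, had 172 and 217 reads, a ratio of 1.08 (0.879 to 1.33). Most of these reads lie on junctions that also fit another gene, and without those Mapkapk5 keeps 8 and 19 reads. Its 90-base exon at chr5:121985863-121985952 was skipped in 2 of 24 mock reads, 8.33% (1.03 to 27.0), and in 6 of 23 stimulated reads, 26.1% (10.2 to 48.4). Mapkap1, a subunit of mTOR complex 2, had 134 and 112 reads, and Mapkbp1, a JNK-binding protein, had 44 and 85.

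The remaining members had few reads or none that could be named. Map3k15 had 6 mock and 0 stimulated reads and Mapk8ip1 had 0 and 5. No junction could be named for 13 members, which were Mapk4, Mapk10, Mapk13, Mapk15, Map3k6, Map3k13, Map3k19, Map3k20, Map3k21, Map3k7cl, Mapk1ip1, Mapk1ip1l and Mapk8ip2. A name needs 2 junctions of a gene, so a gene with a single junction in the data gets none. Mapk1ip1l had 1 matching junction with 2 mock and 8 stimulated reads, and 5 others of the 13 had a single matching junction with 1 read in all. Within the span of Map3k13, 6 junctions with 14 mock and 12 stimulated reads matched none of its annotated introns.

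Along the genes, 585 junctions of members were named and 334 of them had at least 10 reads over both libraries. Of the 334, 8 were seen in 1 library only, of which 7 had mock reads and 1 had stimulated reads. The same count was not made over the junctions of all genes, so whether this is usual for these libraries is not known. Besides those of Mapk3, they include 3 neighbouring junctions of Map4k2 between chr19 positions 6345363 and 6345727, with 25, 15 and 18 mock reads and 0 stimulated reads. On either side of them Map4k2 had 3 and 20 stimulated reads. Map3k3 had 1 junction with 17 and 0 reads, Map3k4 had 1 with 10 and 0, and Map3k14 had 1 with 0 and 12. The lower call of Map4k2 was as large without the empty junctions, at a log2 ratio of -2.56 in place of -2.61.

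**Figure D5:**
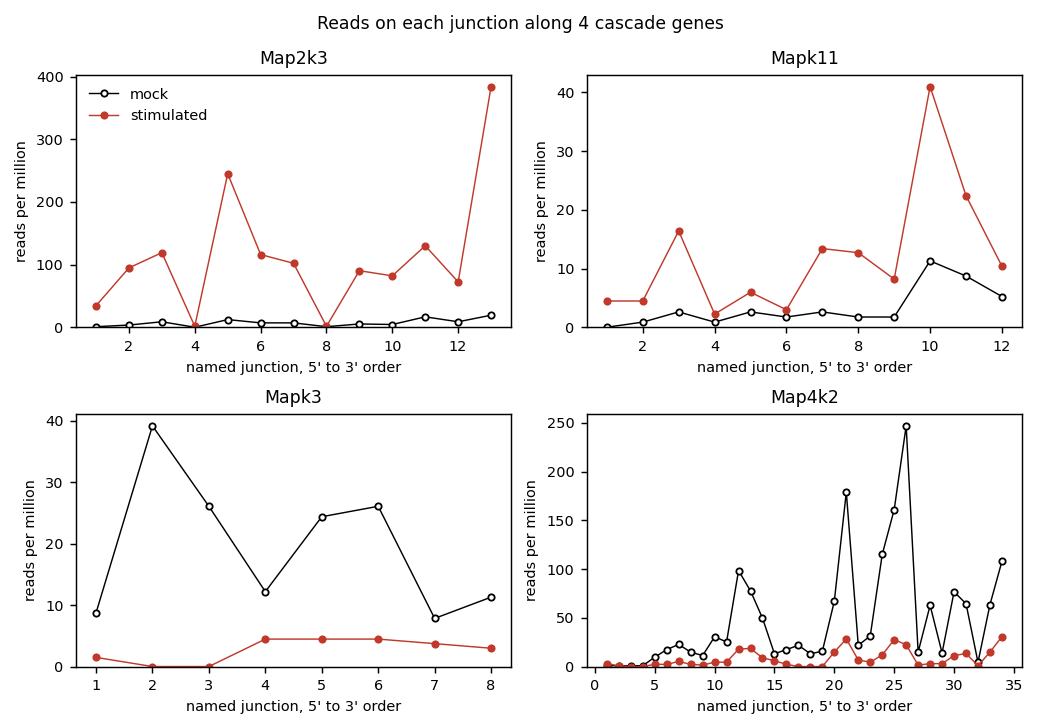
Reads, as rpm, on each named junction from 5′ to 3′ along Map2k3, Mapk11, Mapk3 and Map4k2, open circles for the mock library and filled circles for the stimulated library. The curves of Map2k3 and Mapk11 keep apart along the gene apart from rarely used junctions, while Mapk3 has 2 junctions and Map4k2 has 3 neighbouring ones with reads in the mock library alone.

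Genes around the cascade were followed by role, as a background to its members. Their counts stand beside 17.1% higher and 25.1% lower over all measured genes, and their medians beside -0.21. In the Ras and Raf layer, 5 of 21 measured genes were higher and 5 lower, and the median log2 ratio was -0.28. The highest was Spred1, an inhibitor of Ras signalling, with 3 and 32 reads. The lowest was Rasgrp2, an activator of the GTPase Rap1, with 283 and 20, and the most-read was Rasa3, which turns Ras off, with 1906 and 233. The kinases Araf and Braf met no call. Rasa2, Ksr1 and Spred2 were also higher, and the other lower ones Rras2, Sos2 and Rasa1, named after their values were seen.

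Of 14 measured Ste20 kinases outside the MAP4K genes, 1 was higher and 3 lower, and the median log2 ratio was -0.62. Oxsr1, a regulator of ion transport, had 68 and 174 reads. Stk10, a kinase of lymphocytes, had 514 and 126, and Stk4, of the Hippo pathway, was the most-read with 791 and 237. Taok2 was the third lower gene. Among 17 measured adaptors and scaffolds, 3 were higher and 3 lower (median log2 ratio -0.13). Gadd45b, which binds Map3k4 protein, had 17 and 190 reads, Arrb1, an arrestin, had 170 and 8, and the GTPase Rac2 had 1201 and 535. The others were Traf3 and Sh3rf1 on the higher side and Arrb2 on the lower.

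The phosphatases that switch MAP kinases off had the highest median of these lists, 0.56, with 5 of 13 measured genes higher and 1 lower. Dusp4, which removes phosphate from ERK in the nucleus, was the highest with 4 and 67 reads, a ratio of 14.3 (5.34 to 54.1). Dusp2, Dusp5, Dusp6 and Ptpn7 were the other higher ones. Dusp10, which acts on JNK and p38, was the lowest with 117 and 19 reads, and Ppp2ca, the catalytic subunit of protein phosphatase 2A, was the most-read with 283 and 487.

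Downstream, 0 of 5 measured kinases activated by MAP kinases were higher and 2 were lower, with a median of -0.97. Mknk2, a kinase of the translation factor eIF4E, was both the most-read and the lowest with 1055 and 293 reads, Rps6ka4 was the other lower gene, and Rps6ka3, encoding RSK2, had the highest ratio with 460 and 657 reads. Among 16 measured transcription factors that MAP kinases act on, 4 were higher and 1 lower (median log2 ratio 0.13). Myc had the highest finite ratio, with 23 and 624 reads, and Fosl1 had 0 and 26, at least 7.41-fold higher when set against 3 mock reads. The lower one, Ets1, was also the most-read with 1572 and 316. Fosl2 and Ddit3 were the other higher genes.

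The labelled cell type was checked against markers. All 12 T cell genes looked at, were measured, and they summed to 6750 rpm in the mock and 7330 rpm in the stimulated cells. They went both ways, with Cd3e at 672 and 455 reads, Cd4 at 650 and 285, Lck at 1052 and 1605 and Zap70 at 316 and 1557. Markers of other cells were low. The 11 B cell genes summed to 184 and 136 rpm, of which Cd79b had 53 and 45 reads and Blk, the 1 called lower of 5 measured, had 28 and 16. The 13 myeloid genes summed to 54.9 and 51.4 rpm, and went both ways, with Lyz2 at 15 and 0 reads, Itgam at 10 and 1, Cybb at 5 and 19 and Csf2ra at 5 and 27. Of the 3 measured myeloid genes, Cybb and Csf2ra were called higher, and there was no named junction for S100a8, S100a9, Fcgr3 or Mpeg1. The 6 NK genes summed to 41.0 and 42.5 rpm, with Klrd1 at 38 and 20 reads and called lower, Eomes at 7 and 36 and called higher, and no named junction for Ncr1, Klrb1c or Nkg7. The 8 erythroid and platelet genes summed to 21.8 and 26.8 rpm, and Cd8b1 had 16 and 5 reads with no named junction for Cd8a. The part of these cells in the values of the cascade genes was not tested.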

How the data were processed

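Total RNA of 2 libraries, 1 per group, was sequenced by the authors. Mean insert sizes were 211.79 bp (mock) and 199.014 bp (stimulated), per the labels' protocols. The authors deposited counts of the reads across each splice junction, on mm9; TopHat and Cufflinks are named in the submitters' processing notes, with versions and filters not given in the sources used here. Any filter on junctions there would change the counts of weak junctions.

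Here, counts were used as deposited. The annotation, GENCODE M21, is on another build, so no coordinate was converted. A junction was given a gene's name when chromosome, strand and intron length matched an annotated intron and its distance to at least 1 other such junction matched too. Of 124183 junctions 95575 (77.0%) were named, 82 fitted several genes equally and were left out. The 508 read-through transcripts were not used; this and the rule for junctions that fit several genes were chosen after seeing the data. So were the gene pairs, the exon choices at 10 to 19 reads, the exclusive exons and the genes plotted junction by junction. Members and gene lists were chosen with earlier results of these data known. The rule named every member of at least 20 reads and, of each surrounding list, the highest, lowest and most-read gene; a few such results are not reported here, though the counts include them. Python 3.11.15 with scipy 1.17.1 gave the exact intervals, and the scripts were tested on simulated data. Other scalings, read minimums, folds, gene values and naming rules were tried. Positions are mm9, counted from 1; spans run over the named introns.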

Additional observations from a re-analysis of the deposited data

How the results depend on the processing

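Of the 14 cascade calls, all were kept with the total taken without the 20 most-read genes, at a minimum of 10 reads or none, with the interval widened by the spread between junctions, and under both other naming rules, and no gene named here reversed its direction while called. Scaling by the median of ratios or by the trimmed mean of M values gave 6 higher cascade genes in place of 3. Map3k7, Mapk8 and Mapkapk3 were gained and the lower calls of Map3k1, Mapk14 and Mapk9 lost. The scalings put the level of no change at -0.23 and -0.24 on the log2 scale. In the main scaling the gained genes lay at 0.81 to 0.91 and the lost ones at -1.14 to -1.03, near the fold of 2. Why the scalings differ was not tested. A fold of 1.5 gave 7 higher cascade genes and the most-read junction alone gave 5. A fold of 4 left 6 lower cascade genes, and over all genes 482 higher and 633 lower, as a stricter fold must. At 50 reads per splice site, where fewer sites are tested, 14 of all sites were counted in place of 39. The median log2 ratio of the cascade genes ranged from -0.42 to -0.13. With read-through transcripts kept, Map2k7 had only 4 and 14 reads. No paired analysis was possible because there is 1 library per group and the labels give no replicate numbers, and no library could be left out. Depth limits the exon choices, since the 6 plotted rest on 10 to 45 reads per site and library.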
